A study of Mus musculus with 4 samples.

Results

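The glucose transport and glycolysis genes described here are 10 genes that carry glucose from the cell surface to lactate: the transporters Slc2a1 and Slc2a4, the hexokinases Hk1 and Hk2, the phosphofructokinase Pfkm, the enzymes Gapdh, Pgk1 and Pkm, and the lactate dehydrogenase subunits Ldha and Ldhb. They were chosen by symbol, for their place in the pathway, with earlier results of these data known, and are 10 of the 55401 genes in the deposited table. Of the 10, 9 reached the mean abundance needed for testing, among 10036 genes tested in all, and Slc2a1 did not.

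The question was how the hearts of adult mice heterozygous for a CTCF point mutation differ in gene expression from wild-type hearts. The data were relative transcript abundances (TPM, a share of all transcripts in a library, corrected for transcript length) in heart tissue of 2 wild-type and 2 heterozygous mice, all aged 8 weeks, each sequenced as 1 library. The mice are of the C57BL/6N strain. Wild-type mice carry no edited Ctcf allele, and heterozygous mice (Ctcf +/R567W) carry, in every cell, the CTCF-R567W substitution made by CRISPR/Cas9 editing on one of their alleles. The sources describe no agent given to either group. For embryonic hearts the study describes capture of mRNA from total RNA with beads, and it gives no separate protocol for these adult hearts. In each genotype the replicates are numbered 1 and 2, and values are given below in that order, wild-type first. Ctcf mRNA was at 6.12 and 6.02 scaled TPM in wild-type hearts and 7.51 and 5.76 in heterozygous hearts. A substitution need not alter the summed mRNA of both alleles, so this level does not check the genotype.

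Glucose enters a cardiomyocyte through facilitative transporters, chiefly the insulin-responsive GLUT4 with a smaller part for GLUT1, and is trapped by a hexokinase as glucose 6-phosphate. Phosphofructokinase commits it to glycolysis, the later enzymes make ATP, NADH and pyruvate, and lactate dehydrogenase interconverts pyruvate and lactate. The adult heart obtains most of its ATP from fatty acids and turns more to glucose before birth and under load, which is why this pathway is often examined beside lipid oxidation.

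The libraries differed in how much of their TPM was assigned to genes of the mitochondrial genome (named mt-). That share was 64.7% and 61.1% in wild-type and 68.6% and 62.6% in heterozygous hearts, with overlap. The 10 members together took 0.124% and 0.152% of all TPM in wild-type hearts and 0.0788% and 0.129% in heterozygous hearts. Nuclear copies of mt- genes were assigned another 14.1% and 14.9% against 17.2% and 19.8%, without overlap. These copies match mt- genes at 95% identity or more, so their TPM may include reads of mitochondrial transcripts. With mt- genes and copies left out the members took 0.586% and 0.633% against 0.555% and 0.733%, with overlap. Libraries were therefore scaled by median-of-ratios factors, and values are given as scaled TPM. On this scale the median log2 difference of all tested genes, heterozygous minus wild-type, was -0.0047, against -0.35 for TPM as deposited. Library correlations over tested genes were between 0.966 and 0.981. TPM keep no read depth, so the counting error behind a value is unknown. The tissue label fits its markers: all 8 cardiomyocyte markers were detected, with summed levels of 23383 to 24889 scaled TPM in wild-type and 20060 to 23971 in heterozygous hearts. Of these markers 6 had a negative difference and 4 did not overlap, all on the lower side. Of 8 skeletal muscle markers the myosins Myh1, Myh2 and Myh4 were listed at 0, and the other 5 were above 0 in at least 1 library, with summed levels of 4.18 to 5.42 scaled TPM. The part of cardiomyocyte content in the members' values was not tested. In whole tissue, fewer cells of a type and less RNA per cell cannot be told apart.

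None of the 9 tested members was called in either direction in heterozygous hearts, by the limma criteria (adjusted p under 0.05, over 1.5-fold). Over all tested genes 0.0199% were called lower and 0% higher. At an unadjusted p under 0.05, 1 member (Pgk1) was lower and 0 were higher, where 5.71% and 6.49% of all tested genes were. In 4 members (Slc2a4, Pgk1, Pkm and Ldha) both heterozygous hearts lay below both wild-type hearts, and in 0 both lay above, against 23.3% and 23.7% of all tested genes. The log2 difference was below 0 for 7 of the 9, with a median of -0.21. The values ran from -0.50 for Pgk1 to 0.23 for Gapdh, and the sign for Gapdh turned negative, at -0.22, in TPM as deposited. With 2 mice in each group no exact two-sided permutation test of a single value can give a p under 0.33.

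**Figure D1:**
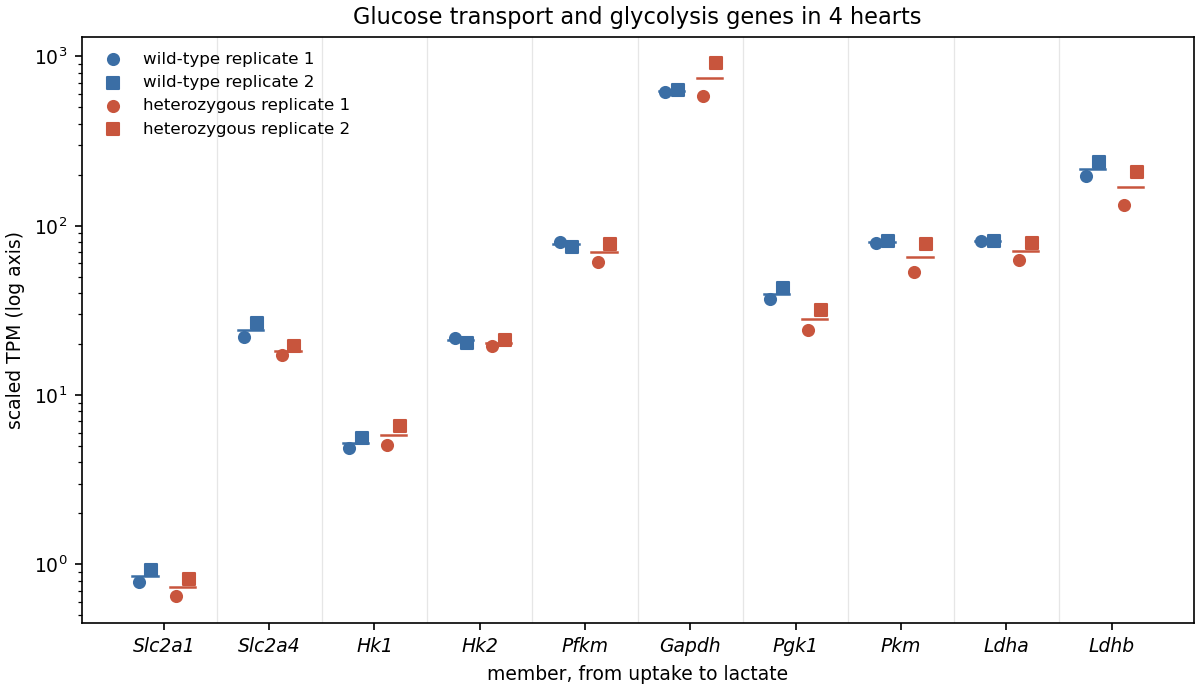
Scaled TPM (log axis) of the 10 members in the 4 hearts, ordered from uptake to lactate, with blue points for wild-type and red for heterozygous, circles for replicate 1, squares for replicate 2, and horizontal lines for genotype means. Levels run from under 1 scaled TPM for Slc2a1 to 910.1 for Gapdh, and for 9 of the 10 (all but Hk1) heterozygous replicate 1 (red circle) has the lowest value of the 4 libraries.

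Because TPM are per length, levels can be compared between members within a library. Gapdh ranked 1 and Ldhb ranked 2 in every library, Pgk1 ranked 6, Hk1 ranked 9 and Slc2a1 ranked 10. Ldha, Pfkm and Pkm filled the ranks from 3 to 5, with Ldha just above Pfkm in every library and Pkm at rank 3 in wild-type replicate 2 and at rank 5 in the others. The remaining pair, Slc2a4 and Hk2, stood in opposite order in the genotypes: Slc2a4 ranked 7 and Hk2 ranked 8 in both wild-type hearts, and the reverse in both heterozygous hearts. The ratio of Slc2a4 to Hk2 was 1.01 and 1.31 in wild-type and 0.881 and 0.922 in heterozygous hearts. That ratio was chosen after the values were seen and was given no test.

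Slc2a4 (ENSMUSG00000018566, chr11:69942539-69948188, minus strand, mm10) encodes GLUT4, the transporter that insulin and contraction bring to the surface of muscle cells. Its level was 22.1 and 26.7 scaled TPM in wild-type hearts and 17.1 and 19.4 in heterozygous hearts, so that the genotypes did not overlap. The means were 24.4 ± 3.26 and 18.3 ± 1.63 (SD, n = 2 each), and the log2 difference was -0.39 ± 0.17 (SE, 95% interval -0.81 to 0.02), with a limma adjusted p of 0.416. The lower value held when any single library was left out, between -0.52 and, without wild-type replicate 2, -0.26.

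Slc2a1 (ENSMUSG00000028645, chr4:119108711-119137983, plus strand) encodes GLUT1, the transporter of basal uptake, which is also abundant in endothelial cells of some vascular beds. It was the least abundant member, at 0.86 and 1.16 TPM as deposited in wild-type hearts and 0.53 and 0.74 in heterozygous hearts, for a mean of 0.82 TPM that fell short of the minimum of 1 TPM for testing. After scaling, its values were 0.791 and 0.921 against 0.648 and 0.819, and the genotypes overlapped. When no minimum was set its log2 difference was -0.10 ± 0.12 (SE), with a limma adjusted p of 0.799. Slc2a4 exceeded Slc2a1 by between 23.7 and 29.0 times in the 4 libraries. Slc2a1 per Slc2a4 was 0.0358 and 0.0345 in wild-type hearts and 0.0379 and 0.0422 in heterozygous hearts, higher in both heterozygous hearts, which gave the smallest p the design allows (exact permutation test, two-sided, p = 0.33). The summed endothelial markers, all 8 detected, also did not overlap, at 289 to 294 scaled TPM in wild-type and 323 to 371 in heterozygous hearts, although only 2 of the 8 had a positive difference and 6 a negative one. Their part in the transporter ratio was not tested.

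Hk2 (ENSMUSG00000000628, chr6:82725025-82774454, minus strand), the insulin-regulated hexokinase of striated muscle, was at 21.8 and 20.3 scaled TPM in wild-type and 19.4 and 21.1 in heterozygous hearts. Hk1 (ENSMUSG00000037012, chr10:62268855-62379908, minus strand), the more broadly expressed hexokinase, was at 4.89 and 5.59 against 5.06 and 6.59. The genotypes overlapped for both enzymes. Their log2 differences were -0.05 ± 0.16 for Hk2 and 0.12 ± 0.17 for Hk1 (SE), with limma adjusted p values of 0.902 and 0.774. Neither sign held under every scaling, since Hk1 was at -0.25 in TPM as deposited and Hk2 at 0.0078 after removal of mt- genes and their nuclear copies. Hk2 exceeded Hk1 by 4.45 and 3.64 times in wild-type and by 3.84 and 3.20 times in heterozygous hearts, and this ratio overlapped (exact permutation test, two-sided, p = 0.667).

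Pfkm (ENSMUSG00000033065, chr15:98092589-98132451, plus strand) encodes the muscle subunit of phosphofructokinase, the committed step of glycolysis. It was at 79.9 and 75.3 scaled TPM in wild-type hearts and 61.2 and 77.8 in heterozygous hearts. Heterozygous replicate 1 was the lowest library and replicate 2 lay between the wild-type hearts. The log2 difference was -0.17 ± 0.19 (SE, limma adjusted p = 0.731), and without heterozygous replicate 1 it was 0.0033. Within a library the share of an enzyme among its isoenzymes does not depend on the scaling. As a share of the 3 phosphofructokinase genes, a set chosen after the values were seen and not tested, Pfkm took 82.7% and 82.8% in wild-type and 75.7% and 81.1% in heterozygous hearts, which did not overlap. The platelet-type subunit Pfkp took 9.80% and 9.003% against 16.8% and 11.3%, also without overlap. Pfkm was the main subunit in all 4 hearts. Slc2a4, over 5 transporter genes, took 79.7% and 80.6% against 77.0% and 76.0%, also without overlap.

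Gapdh (ENSMUSG00000057666, chr6:125161715-125166467, minus strand) encodes glyceraldehyde-3-phosphate dehydrogenase, the step that yields NADH, and is widely used as a reference gene. It was at 616 and 634 scaled TPM in wild-type hearts and 587 and 910.1 in heterozygous hearts. The heterozygous hearts were the lowest and the highest of the 4, and their SD of 228 exceeded the wild-type SD of 12.9. The log2 difference was 0.23 ± 0.26 (SE, 95% interval -0.39 to 0.84, limma adjusted p = 0.726), and it was -0.09 without heterozygous replicate 2 and 0.54 without heterozygous replicate 1. Heterozygous replicate 2 also had the highest summed level of erythroid markers, 2120 scaled TPM against 930 to 987 in wild-type hearts and 965 in heterozygous replicate 1, with 7 of the 8 markers in the table, none at 0, and all 5 tested ones at a positive difference. It had the highest sum of the 5 atrial markers too, 3284 against 806 to 2355 in wild-type hearts and 1919 in heterozygous replicate 1, with none at 0. The part of either in the Gapdh value was not tested. Gapdh has 85 gene models, mostly processed pseudogenes, that match it at 95% to 100% identity, and these took between 3.35% and 6.98% of the TPM of Gapdh and its copies, so its level is uncertain to that extent.

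The next enzyme, Pgk1 (ENSMUSG00000062070, chrX:106187100-106203699, plus strand), phosphoglycerate kinase, makes ATP from the product of Gapdh. It was at 36.7 and 42.9 scaled TPM in wild-type hearts and 24.2 and 31.9 in heterozygous hearts. Both heterozygous hearts were below both wild-type hearts, and with all 4 libraries this was the largest log2 difference among the members. The means were 39.8 ± 4.36 against 28.03 ± 5.44 (SD, n = 2 each). The log2 difference was -0.50 ± 0.20 (SE, 95% interval -0.97 to -0.02), which is 1.41-fold on the linear scale. Its limma p was 0.0422 before and 0.395 after adjustment over all tested genes, and between 0.0696 and 0.998 after adjustment under the other settings. Leaving out single libraries moved the difference between -0.69 and, without heterozygous replicate 1, -0.31. Gapdh differed more, at 0.54, without heterozygous replicate 1, and Ldhb slightly more, at -0.70, without heterozygous replicate 2. Of all tested genes, 3.78% had a lower log2 difference than Pgk1 with all 4 libraries. Pgk1 has 4 near-identical copies that took between 1.17% and 2.83% of the joint TPM.

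Pkm (ENSMUSG00000032294, chr9:59656368-59679375, plus strand) encodes pyruvate kinase of muscle, the last step before pyruvate. It was at 78.9 and 81.7 scaled TPM in wild-type hearts and 53.6 and 77.6 in heterozygous hearts. The genotypes did not overlap, but heterozygous replicate 2 lay close to the wild-type hearts. The log2 difference was -0.31 ± 0.22 (SE, limma adjusted p = 0.569), and it was -0.05 without heterozygous replicate 1 and -0.58 without heterozygous replicate 2. The table gives 1 value per gene, so the splice forms of Pkm were not separated here.

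The lactate dehydrogenase subunits were the last members. Ldhb (ENSMUSG00000030246, chr6:142490249-142507957, minus strand) encodes the heart-type subunit, and Ldha (ENSMUSG00000063229, chr7:46841475-46855627, plus strand) the muscle-type subunit, whose gene is a classic target of hypoxia-inducible factor. Ldhb was at 197 and 238 scaled TPM in wild-type hearts and 132 and 207 in heterozygous hearts, which overlapped. Ldha was at 81.4 and 80.9 against 62.4 and 78.6, which did not. Their log2 differences were -0.38 ± 0.26 and -0.21 ± 0.19 (SE), with limma adjusted p values of 0.556 and 0.658. Without heterozygous replicate 1 the values were -0.06 and -0.05, Ldhb was at -0.25 without wild-type replicate 2, and without heterozygous replicate 2 they were -0.70 and -0.37.

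Ldhb was the more abundant subunit in all 4 hearts, by between 2.12 and 2.94 times. Ldha per Ldhb was 0.413 and 0.340 in wild-type hearts and 0.471 and 0.379 in heterozygous hearts. The mean ratio was 0.377 ± 0.0518 against 0.425 ± 0.0649 (SD, n = 2 each), and the genotypes overlapped (exact permutation test, two-sided, p = 0.667). Ldhb made up 70.7% and 74.6% of lactate dehydrogenase TPM in wild-type and 68.0% and 72.5% in heterozygous hearts. A shift between the subunits was thus not larger than the spread between hearts of one genotype.

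The bases just before the start sites of Pgk1, Ldha and Ldhb are shown for 2 reasons. Pgk1 had the largest log2 difference with all 4 libraries, and the lactate dehydrogenase pair differs in these windows. Each run is the 250 bases before a RefSeq start, 5′ to 3′ in the direction of the gene, from build GRCm38.p6. The run before Ldha lies inside the span of that gene given above, after the annotated gene start at chr7:46841475. Capitals mark ACGTG on either strand (CACGT is its reverse complement), the core of the hypoxia response element. The E-box CACGTG contains this core on both strands and counts as 2 matches.
Pgk1, chrX:106186850-106187099, plus strand: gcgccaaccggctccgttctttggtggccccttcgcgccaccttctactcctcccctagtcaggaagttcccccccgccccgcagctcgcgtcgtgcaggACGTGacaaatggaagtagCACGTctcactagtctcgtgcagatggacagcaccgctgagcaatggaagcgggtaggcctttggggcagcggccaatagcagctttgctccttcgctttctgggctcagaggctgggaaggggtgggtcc
Ldha, chr7:46845554-46845803, plus strand: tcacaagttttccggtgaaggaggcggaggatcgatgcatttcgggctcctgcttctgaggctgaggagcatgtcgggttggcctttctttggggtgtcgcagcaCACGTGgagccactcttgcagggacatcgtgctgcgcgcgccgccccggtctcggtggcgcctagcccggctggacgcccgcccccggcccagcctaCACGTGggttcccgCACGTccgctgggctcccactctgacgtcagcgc
Ldhb, chr6:142507958-142508207, minus strand: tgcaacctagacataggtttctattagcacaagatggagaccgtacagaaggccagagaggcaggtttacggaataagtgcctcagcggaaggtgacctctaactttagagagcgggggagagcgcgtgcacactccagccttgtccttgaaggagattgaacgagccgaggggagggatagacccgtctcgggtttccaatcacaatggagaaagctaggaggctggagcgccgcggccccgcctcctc
The core matched 2 times in the run before Pgk1, 5 times in that before Ldha, where 2 of the matched places are E-boxes, and 0 times in that before Ldhb. A second RefSeq start of Ldha has its window at chr7:46846832-46847131, which held 0 matches of the core, the E-box or the GC box, so the contrast with Ldhb is limited to the window shown. In windows of 300 bases (250 before to 50 after a start) 19.6% of 32851 mouse windows held 1 or more matches, 8.2% held 2 or more and 0.2% held 5 or more. The table had 15 windows for 9 of the members, all but Slc2a4, and 9 of these windows, from 8 members, held a match. The GC box GGGCGG, on either strand, was counted 5 times in the Pgk1 window and 3 times in the first of Ldha, and 2.7% of all windows held 5 or more. These matches describe sequence alone. Ldha and Ldhb had log2 differences of the same sign, and neither passed the test. The 12 immediate early and hypoxia response genes, as a list, had summed levels of 313 to 369 scaled TPM in wild-type and 286 to 387 in heterozygous hearts, with 0 of the 7 tested genes called.

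The size of these differences depended on the scaling. In TPM as deposited all 9 tested members had a negative difference, with a median of -0.65, 7 were without overlap and 6 had an unadjusted p under 0.05. Over all genes in the same values 67.8% were without overlap on the lower side and 33.3% were lower at an unadjusted p under 0.05, and the smallest adjusted p of a member was 0.0891. With the mt- genes removed and the rest rescaled, all 9 were again negative and the smallest adjusted p was 0.0696. With nuclear copies of the mt- genes removed as well, 6 of the 9 were negative, 4 were without overlap on the lower side and 1 (Gapdh) on the higher side, against 17.6% and 27.3% of all tested genes. Under these 3 scalings, as under median-of-ratios scaling, 7 members lay below the median of all tested genes, which was -0.31 with mt- genes removed and 0.05 with their copies removed too.

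**Figure D2:**
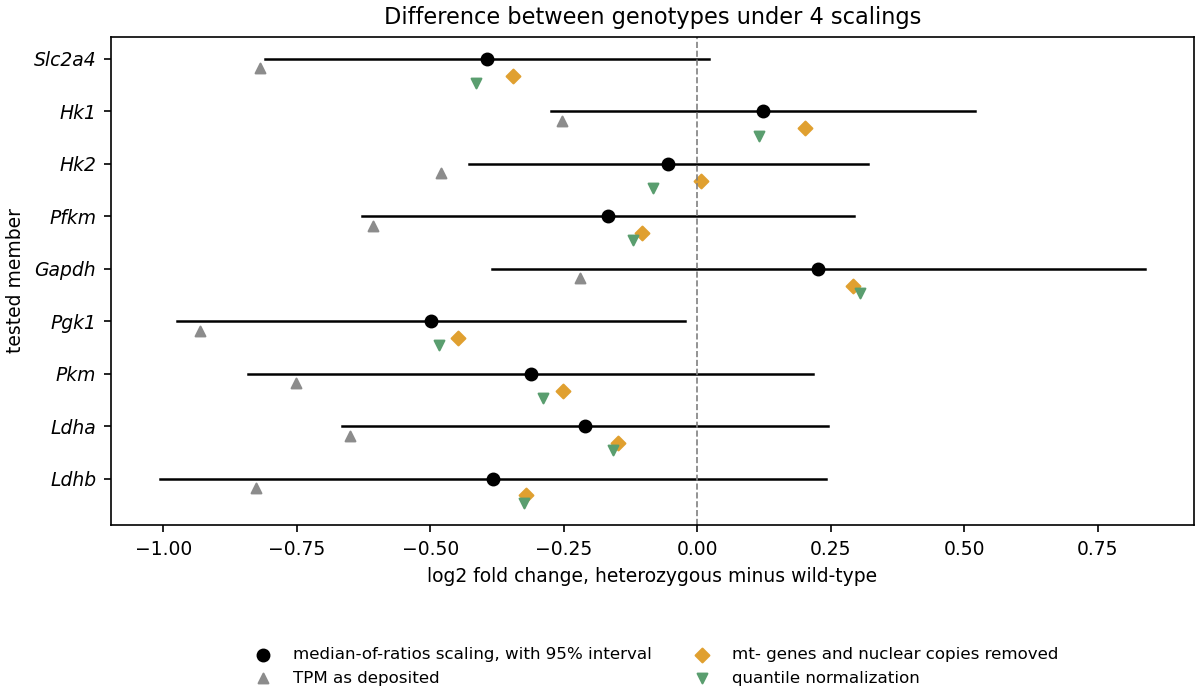
Log2 fold change of the 9 tested members, heterozygous minus wild-type, with black points and bars for median-of-ratios scaling and its 95% interval, and small symbols for TPM as deposited, removal of mt- genes with their nuclear copies, and quantile normalization. TPM as deposited put every member below 0, while under the other 3 scalings drawn Gapdh and Hk1 were above 0. Hk2 was also above 0, at 0.0078, with mt- genes and their nuclear copies removed. Pgk1 was lowest in all 4.

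A quotient of genes within a library needs no scaling at all. Relative to Gapdh, the reference gene of the RT-qPCR in the study, 7 of the other 9 members were lower in both heterozygous hearts than in both wild-type hearts, against 31.5% of all tested genes. Pgk1 stood at 5.96% and 6.76% of Gapdh in wild-type hearts and at 4.12% and 3.50% in heterozygous hearts. Ldhb stood at 31.97% and 37.5% against 22.6% and 22.8%, Pkm at 12.8% and 12.9% against 9.12% and 8.52%, and Slc2a4 at 3.59% and 4.21% against 2.92% and 2.13%. Pfkm, Ldha and Slc2a1 were the others without overlap. Hk1, at 0.794% and 0.882% against 0.862% and 0.724%, and Hk2, at 3.54% and 3.21% against 3.31% and 2.31%, overlapped. All 9 quotients share the Gapdh value of a library, so they are not 9 separate observations, and a high Gapdh value lowers all of them.

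**Figure D3:**
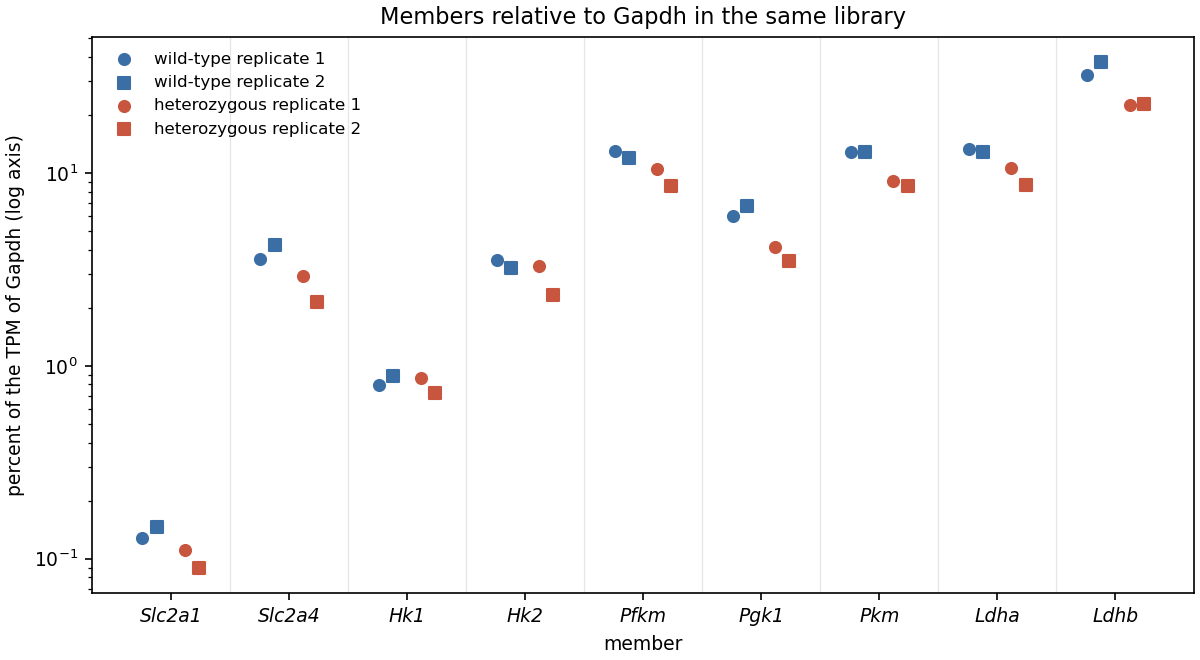
Level of each other member as a percent of the Gapdh TPM of the same library (log axis), with blue points for wild-type, red for heterozygous, circles for replicate 1 and squares for replicate 2. The red points lie below the blue ones for all members but Hk1 and Hk2.

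The values also depended on single heterozygous libraries. Without heterozygous replicate 1 the median difference of the 9 members was -0.05, 5 were negative, and 1 (Gapdh, at 0.54) had an unadjusted p under 0.05, on the higher side, against 6.63% of all tested genes lower and 8.87% higher in that fit. In the heterozygous heart that remained, Gapdh and Hk1 lay above both wild-type hearts and 4 members (Slc2a4, Pgk1, Pkm and Ldha) below both, against 38.7% and 39.2% of all tested genes. Without heterozygous replicate 2 the median was -0.37 and all 9 were negative, 5 of them at an unadjusted p under 0.05, against 12.3% of all tested genes. Without either wild-type library 7 were negative and 0 had an unadjusted p under 0.05. No member was called in any of these fits. Slc2a4, Pgk1, Pkm, Ldha and Ldhb were negative in all of them, and Gapdh, Hk1, Hk2 and Pfkm changed sign with a heterozygous library left out.

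Around the members, 8 lists of other genes of glucose use held 133 genes in the table, of which 90 were tested. None was called, 8 were lower and 8 higher at an unadjusted p under 0.05, and 32 were without overlap on the lower and 20 on the higher side, with a median log2 difference of -0.10. The shares over all tested genes, as above, were 5.71% and 6.49% at that p, and 23.3% and 23.7% without overlap. Beside 9 tested members at -0.21, the median was -0.32 for the 13 genes of pyruvate and lactate transport and pyruvate dehydrogenase and -0.38 for the 9 of the cytosolic NADH shuttles. It was -0.15 for the 9 listed as regulatory enzymes of glycolysis, which include Fbp2, Pck2 and Minpp1. For the 11 listed as other glycolytic enzymes, Ldhd among them, the median was -0.02. It was 0.05 for the 18 of glycogen metabolism and 0.07 for the 12 of the pentose phosphate, hexosamine and polyol branches. For the 17 of GLUT4 traffic and regulators of glucose use, most of them regulators, it was -0.08.

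The largest difference in these lists was in Pdk4, the kinase that switches off pyruvate dehydrogenase when fatty acids are used. It was at 13.9 and 7.78 scaled TPM in wild-type and 2.37 and 1.34 in heterozygous hearts, a log2 difference of -2.02 ± 0.29 (SE, limma adjusted p = 0.174). Its adjusted p ran from 0.00729 to 0.519 over the other settings, so that its call depended on the processing. Txnip, an inhibitor of glucose uptake, was at 114 and 40.3 against 26.7 and 24.3, a log2 difference of -1.38 (adjusted p = 0.346) that was -0.64 without wild-type replicate 1 and -2.12 without wild-type replicate 2. Dlat, of the pyruvate dehydrogenase complex, was at -0.42, and Bsg, the chaperone of lactate transporters, at -0.33, which was -0.17 without wild-type replicate 2, -0.13 without heterozygous replicate 1 and -0.54 without heterozygous replicate 2.

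The malate-aspartate shuttle carries the NADH of the Gapdh step into mitochondria. Its genes at an unadjusted limma p under 0.05 were Mdh1 at -0.71, Mdh2 at -0.65 and Got1 at -0.42, each without overlap. Gpd1 of the glycerol phosphate shuttle was at 0.39. Of the 9 tested genes of the NADH shuttles 6 were without overlap on the lower side and 1 on the higher, against 23.3% and 23.7% of all tested genes. Among enzymes of glycolysis that are no members, the most abundant was Aldoa at -0.30, which was -0.19 without wild-type replicate 2, -0.07 without heterozygous replicate 1 and -0.54 without heterozygous replicate 2. Pfkp was at 0.42 (0.27 without heterozygous replicate 1), the fructose 2,6-bisphosphate enzymes Pfkfb4 at 0.37 and Pfkfb2 at -0.07, and the transporter Slc2a8 at -0.08. In glycogen metabolism, Pgm2 was at 0.54, Gyg, the primer of glycogen, at -0.52 (-0.31 without heterozygous replicate 1) and the phosphorylase Pygm at 0.03, which was -0.41 in TPM as deposited. In the side branches, Sord was at -0.54 (-0.33 without heterozygous replicate 1), Akr1b3 at -0.18 (-0.0029 and -0.37 without heterozygous replicates 1 and 2) and Uap1 at 0.37, which was -0.038 in TPM as deposited. The regulators Klf15 and Tbc1d1 were at 0.58 and 0.51. In TPM as deposited these and other positive values were smaller, at 0.20 for Klf15, 0.14 for Tbc1d1, 0.26 for Pgm2, 0.015 for Pfkp, 0.061 for Pfkfb4 and 0.068 for Gpd1. Except where another setting is named, these are log2 differences of scaled TPM with all 4 libraries. In that fit the smallest limma adjusted p among them, apart from Pdk4, was 0.308 for Klf15. The summed fibroblast markers, all 8 detected, did not overlap either, at 65.0 to 90.8 scaled TPM in wild-type and 60.0 to 64.7 in heterozygous hearts, and their part in these values was not tested.

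**Figure D4:**
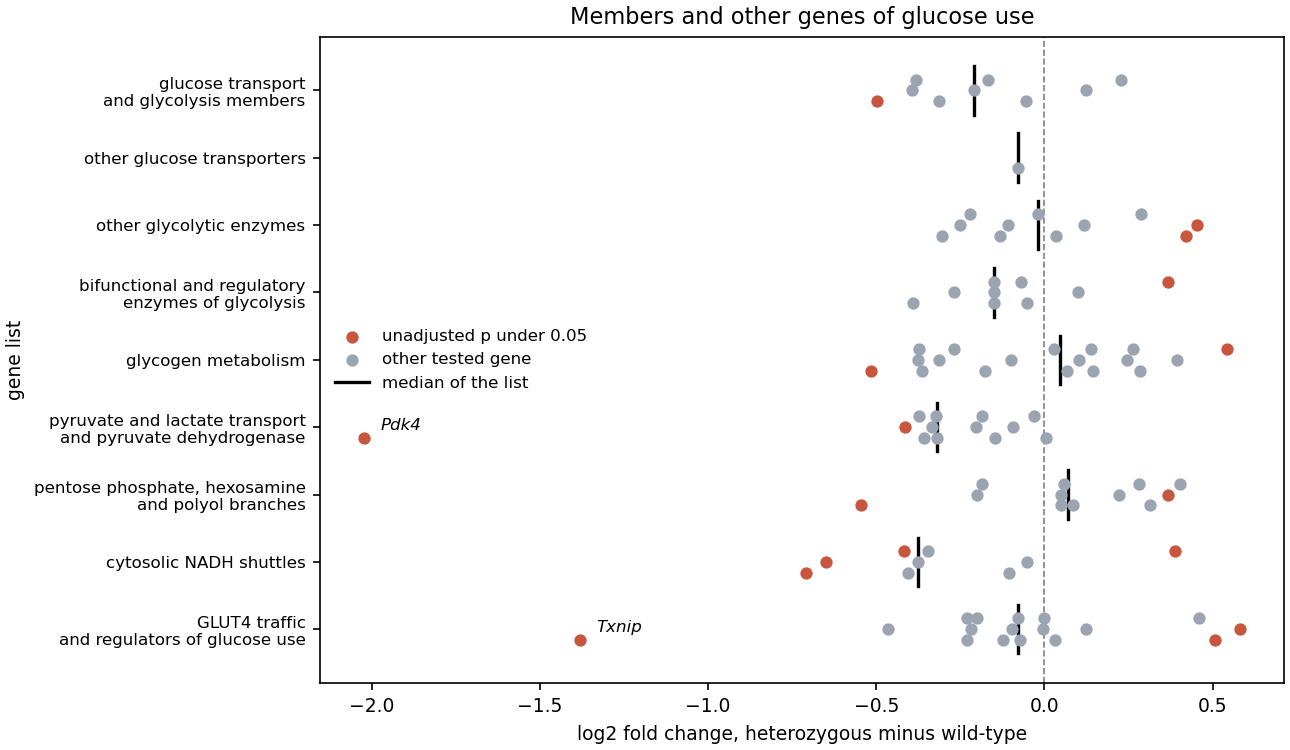
Log2 fold change, heterozygous minus wild-type, of each tested gene in the members and in 8 lists of other genes of glucose use, with red points at an unadjusted p under 0.05 and black bars for list medians. The members lie between -0.50 and 0.23, and Pdk4 at -2.02 and Txnip at -1.38 have the lowest values, of which that of Txnip was -0.64 without wild-type replicate 1 (vertical position within a list has no meaning).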

How the data were processed

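The authors deposited TPM values per gene, made from reads trimmed with Trim Galore, aligned to mm10 with STAR and quantified with RSEM. The annotation release is not given in the sources used here. TPM keep no depth, so the main test of the study on counts (DESeq2) was not repeated.

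Libraries were scaled by median-of-ratios factors (from genes above 0 in all 4 libraries whose mean TPM was 1 or more), and 1 was added before log2. The limma model was fitted to the 10036 genes averaging 1 TPM or more (version 3.58.1, lmFit and eBayes with trend, R 4.3.3), two-sided, and p values were adjusted over all of them by Benjamini-Hochberg. Fold changes are on the log2(value + 1) scale. Calls needed an adjusted p below 0.05 together with a fold over 1.5. With 2 mice per group, p values measure the spread between these mice only. Near-identical copies were found with BLAST+ (2.17.0, at least 95% identity over 80% of the length). Gene coordinates are from GENCODE vM21, to which 55141 identifiers matched. The scripts were tested on simulated data. The members and lists were chosen with earlier results of these data known. Every member is named, and from each other list its most abundant tested gene and up to 4 genes with an unadjusted p under 0.05. A gene that this rule names is not reported here. Copies and isoenzyme shares were added after values were seen.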

Additional observations from a re-analysis of the deposited data

How the results depend on the processing

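No member was called under any of the settings run: pseudocounts of 0.1 and 5, no filter, a minimum mean TPM of 5, deposited TPM without scaling, mt- genes removed with and without their nuclear copies, quantile normalization, eBayes without trend or robust, a replicate block, other thresholds, copies added to members, and each library left out. Adjusted p values of members ranged from 0.0696 upwards. Members at an unadjusted p under 0.05 numbered 6 both for TPM as deposited (33.8% of all tested genes) and after removal of mt- genes (29.6%), 2 for quantile normalization (12.6%), eBayes without trend (12.4%) and the replicate block (14.3%), and 0 to 5 with a library left out (4.52% to 22.4%). Members without overlap on the lower side numbered 7 for TPM as deposited (67.8% of all tested genes) and after removal of mt- genes (58.9%), and 6 under quantile normalization (23.3%). On the higher side there was 1 under quantile normalization (23.7%) and with mt- genes and nuclear copies removed (27.3%).

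With TPM as deposited, Hk1 was at -0.25, Gapdh at -0.22, Pygm at -0.41 and Uap1 at -0.038. With mt- genes removed, Hk1 was at -0.18, Gapdh at -0.11 and Pygm at -0.30. With nuclear copies removed too, an alternative chosen after seeing the data, Hk2 was at 0.0078. With libraries left out, Hk1 ranged from -0.039 to 0.28, Hk2 from -0.11 to 0.0012, Pfkm from -0.34 to 0.0033, Gapdh from -0.089 to 0.54, Slc2a8 from -0.23 to 0.070, Pfkfb2 from -0.29 to 0.14 and Pygm from -0.11 to 0.16.

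Of the other genes of glucose use, 1 (Pdk4) was called for TPM as deposited (adjusted p = 0.00884), after removal of mt- genes (0.0342) and with the replicate block (0.00729). Over all tested genes 11 were called lower and 2 higher for TPM as deposited, and 12 and 2 after removal of mt- genes. At an unadjusted p under 0.05, the other genes of glucose use numbered 42 lower and 0 higher of 90 in TPM as deposited. There 33.3% of all tested genes were lower. Without mt- genes they numbered 41 and 0 (28.5% of all tested genes lower). With no filter 13 were lower (3.87% of all tested genes), and 5 were higher (7.37%) at a minimum mean TPM of 5. Both filter settings changed how many genes were tested, so 90 is not their denominator. With a library left out, 2 to 23 were lower, against 2.08% to 12.3% of all tested genes. In the same fits 2 to 8 were higher, against 2.35% to 10.2%. With pseudocounts of 0.1 and 5, Hk1 was at 0.14 and 0.078, Slc2a8 at -0.097 and -0.043, Pgm2 at 0.81 and 0.22, Pfkfb4 at 0.51 and 0.17, Gpd1 at 0.52 and 0.18, Klf15 at 0.67 and 0.36, Tbc1d1 at 0.60 and 0.30, and Pdk4 at -2.47 and -1.18. The log2 difference in the ratio of Slc2a1 to Slc2a4, heterozygous minus wild-type, was 0.18, and 0.52 from TPM + 1. With single libraries left out it ran from 0.11, without heterozygous replicate 2, to 0.26, without heterozygous replicate 1. Same-numbered libraries are different mice, and the labels give no link between them other than the number. Their deviations correlated at 0.101. The replicate block changed no other call among the members and these genes. Over all tested genes it gave 7 called lower and 3 higher, against 2 and 0 without it. A lone library was assumed to vary like the other group. Depth is unknown, and 2 mice per genotype limit what can be told apart. The cause of these shifts was not tested.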
